A study of Homo sapiens with 60 samples.

Results

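The genes of the cytosolic ribosomal proteins were followed across vehicle and 8 herbal extracts in A549 cells, an established line of human lung carcinoma cells obtained from the American Type Culture Collection. The rule took protein-coding genes whose symbols begin with RPL or RPS and a digit, together with RPLP0, RPLP1, RPLP2 and RPSA, and left out the RPS6K kinases, RPS27L and names of pseudogenes. It gave 89 of the 60675 genes in the deposited table. Of these, 77 are core genes of the ribosome (46 of the large and 31 of the small subunit), 9 are paralogues such as RPL22L1 and RPL39L, and 3 are read-through names (RPL17-C18orf32, RPL36A-HNRNPH2 and RPS10-NUDT3), whose counts are uncertain because they share sequence with a core gene. The filter on low counts was passed by 87 members; RPL10L and RPS4Y2 did not pass. The rule goes by name and not by values, but it was chosen with earlier results of these data known.

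All cells were collected after 24 h, and RNA was sequenced as bulk mRNA libraries. The controls received the vehicle DMSO, given as 0.1% in the sample labels and as another share in the series description. For libraries treated with an extract the labels record no DMSO share. Yijin-tang and Soshiho-tang, both decoctions of several herbs, were water extracts. The other 6 were ethanol extracts of single herbs. Doses were 500, 100 and 20 µg/mL (high, medium and low) for 6 extracts. Aucklandiae Radix was given at 370, 74 and 14.8 µg/mL, and Polygalae Radix at 380, 76 and 15.2 µg/mL. Library names begin with a set number. Set C1 held the 3 vehicle libraries, set 8 held Soshiho-tang and Yijin-tang, set 9 Schisandrae Fructus and Liriopis seu Ophiopogonis Tuber, set 10 Zizyphi Semen and Longan Arillus, and set 11 Aucklandiae Radix and Polygalae Radix. Groups held 3 libraries each, except Soshiho-tang with 2 per dose and the set 11 extracts with 1 per dose. The labels do not say whether the replicates were separate cultures, so p-values rest on a spread between libraries that may be technical.

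Ribosomal proteins assemble with ribosomal RNA into the small subunit, which reads the mRNA, and the large subunit, which joins amino acids. Their genes are among the most highly transcribed in growing cells, and their mRNAs are short. Most begin with a C followed by an unbroken run of pyrimidines, the 5′ terminal oligopyrimidine (TOP) tract, through which the mTOR pathway and the protein LARP1 set how much of these mRNAs is translated and stored. Several members have roles beyond the ribosome: RPL5 and RPL11 bind MDM2 and so stabilise p53 when ribosome assembly fails, and RPS6 is the substrate that names the S6 kinases.

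Left out by the rule were 2 libraries that stood apart: replicate 3 of Soshiho-tang medium, in which the members took 7.751% of all counts, and replicate 3 of Longan Arillus low, in which they took 9.859%. In the other 58 libraries the share was 3.631 to 4.568%. Soshiho-tang medium thus had 1 library and Longan Arillus low 2. Library totals were 18 to 33.83 M counts. All 10 epithelial markers of A549 exceeded 1 CPM (counts-per-million) in vehicle, and their sum was 18060 to 18430 CPM there and 3074 to 18430 CPM over the 58 libraries. Of the markers of other cell types, 4 of 10 fibroblast (1 at 0), 2 of 10 leukocyte (3 at 0), 0 of 8 endothelial (2 at 0) and 1 of 8 hepatocyte genes (1 at 0) exceeded 1 CPM in vehicle.

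The bases at the transcription start show what most members share beyond their names. RefSeq (GRCh38.p14) start sites were found for 71 of the 89 members, 62 of them core. Each window below holds 10 bases before the annotated first base and 20 from it on, 5′ to 3′ on the coding strand, and capitals mark the unbroken run of C and T that begins at the first base. The first 5 belong to members that fell often or far against vehicle, and the last 4 to members that rose in at least 1 comparison.
RPS14 (chr5:150449720-150449749, minus strand): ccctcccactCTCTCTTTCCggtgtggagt
RPLP1 (chr15:69452808-69452837, plus strand): ggcgcgagagCCCCTTTCCTCagctgccgc
RPL39 (chrX:119791611-119791640, minus strand): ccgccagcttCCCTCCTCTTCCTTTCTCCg
RPL31 (chr2:101002279-101002308, plus strand): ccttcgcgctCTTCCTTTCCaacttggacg
RPS21 (chr20:62387093-62387122, plus strand): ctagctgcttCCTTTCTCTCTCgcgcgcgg
RPL28 (chr19:55385922-55385951, plus strand): cctcgccttcCTCTTTCCgtctcaggtcgc
RPL12 (chr9:127451387-127451416, minus strand): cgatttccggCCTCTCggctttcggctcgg
RPS26 (chr12:56041908-56041937, plus strand): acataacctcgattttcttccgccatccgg
RPS4X (chrX:72277229-72277258, minus strand): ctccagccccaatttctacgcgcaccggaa
A start was counted as holding a tract where the first base was C and at least 5 pyrimidines ran on from it. Where a gene had several annotated starts, the window and the run are those of the start with the longest run. A tract at any of its starts counted, for members and for all genes alike. By these letters 46 of the 62 core members (74.2%) held a tract, against 1404 of 27305 genes in the RefSeq table (5.14%). The median run of the core members was 7 bases, and the longest was the 19 of RPL39. RPS26 and RPS4X had none at the annotated base, although a pyrimidine stretch lies a few bases further on in both windows.

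In vehicle, core members ranged from 78.9 to 1948 CPM (scaled by trimmed mean of M-values, TMM). Set against transcript length, the highest levels in vehicle were those of RPS16 (2408 CPM per kb), RPS2 (2372), RPLP1 (2076), RPL41 (1718) and RPS19 (1658). The lowest core levels were those of RPS28 (100.6 CPM per kb), RPS29 (135.4), RPL35A (178.8), RPL34 (180.6) and RPS25 (226.4). RPS28 and RPS29 encode small proteins, and lengths here are those of annotated transcripts, which need not be the ones expressed. The proteins are incorporated in equal numbers, apart from the stalk, but the mRNA levels per kb thus spread over more than an order of magnitude. The paralogue RPL36AL, at 184.4 CPM per kb, lay among the lowest core members. Below the lowest of them were RPL22L1 at 89.3 CPM per kb, RPL7L1 at 43.6, RPL26L1 at 32.2, RPL39L at 24.9 and RPL3L at 0.29.

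As a percent of all counts, the members lay below the vehicle range in most extract libraries. The members took 4.473 to 4.568% of counts in the 3 vehicle libraries (4.511 ± 0.0501, SD, n = 3) and a median of 4.218% over all 58. The group means of the 6 replicated extracts lay between 3.988% (Zizyphi Semen medium) and 4.391% (Schisandrae Fructus high). The highest libraries of Yijin-tang medium (4.558%), Schisandrae Fructus medium (4.552%) and high (4.504%) and Longan Arillus high (4.487%) lay within the vehicle range. In Polygalae Radix high (1 library) the members took 4.355% and mitochondrial genes 15.35% of counts. Mitochondrial genes took 11.46 to 11.76% of counts in vehicle and 10.97 to 18.83% over the 58 libraries, and their part in the share of the members was tested only by leaving them out, as given in the closing section. Because vehicle libraries carry their own set number, treatment and set cannot be told apart in any comparison with vehicle. In bulk RNA, fewer cells and less RNA per cell cannot be told apart either. All comparisons with vehicle share the same 3 libraries, so their results are not independent of one another.

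**Figure D1:**
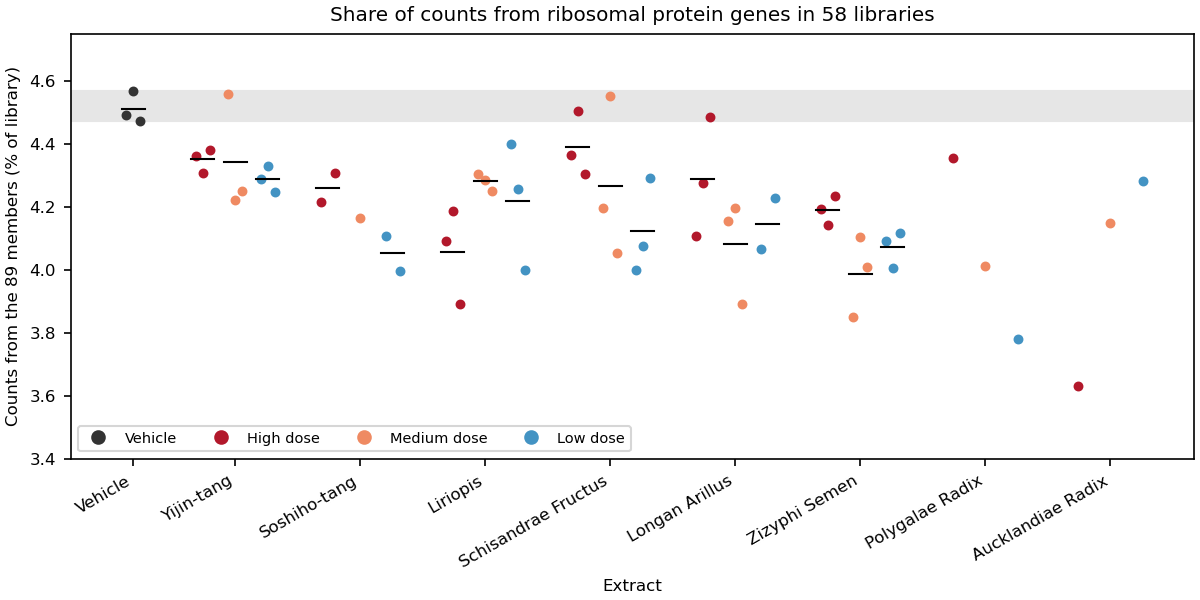
Percent of each library's counts that came from the 89 members, by extract and dose, with 1 point per library and a bar at each group mean. The 3 vehicle libraries sit between 4.473 and 4.568%, and the lowest library is Aucklandiae Radix high at 3.631%.

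The median core member was lower than in vehicle in all 24 extract and dose groups, by 3.79% (Schisandrae Fructus high) to 24.4% (Polygalae Radix high) on the TMM scale. That scaling places the bulk of genes near a log2 ratio of 0, and the median of all tested genes lay between -0.00463 and 0.00404. By total counts the members' log2 median in Polygalae Radix high was -0.0791, where that of all genes was 0.22, so its place in this order rests on the scaling. In each group 50 to 76 of the 77 core members had a mean below the vehicle mean. For 10 core members, among them RPL14, RPL31, RPL37A, RPL7A, RPLP0, RPLP1, RPS14, RPS23 and RPSA, each of the 55 extract libraries lay below each of the 3 vehicle libraries. Of all tested genes, 0.927% showed this. No core member lay above vehicle in each of the 55, as 0.417% of all genes did. The median core member had 48 of 55 extract libraries below all vehicle libraries, and 34 had at least 50. Among those with fewer than 10 were RPL37, RPL12, RPS2, RPS26 and RPS4X.

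**Figure D2:**
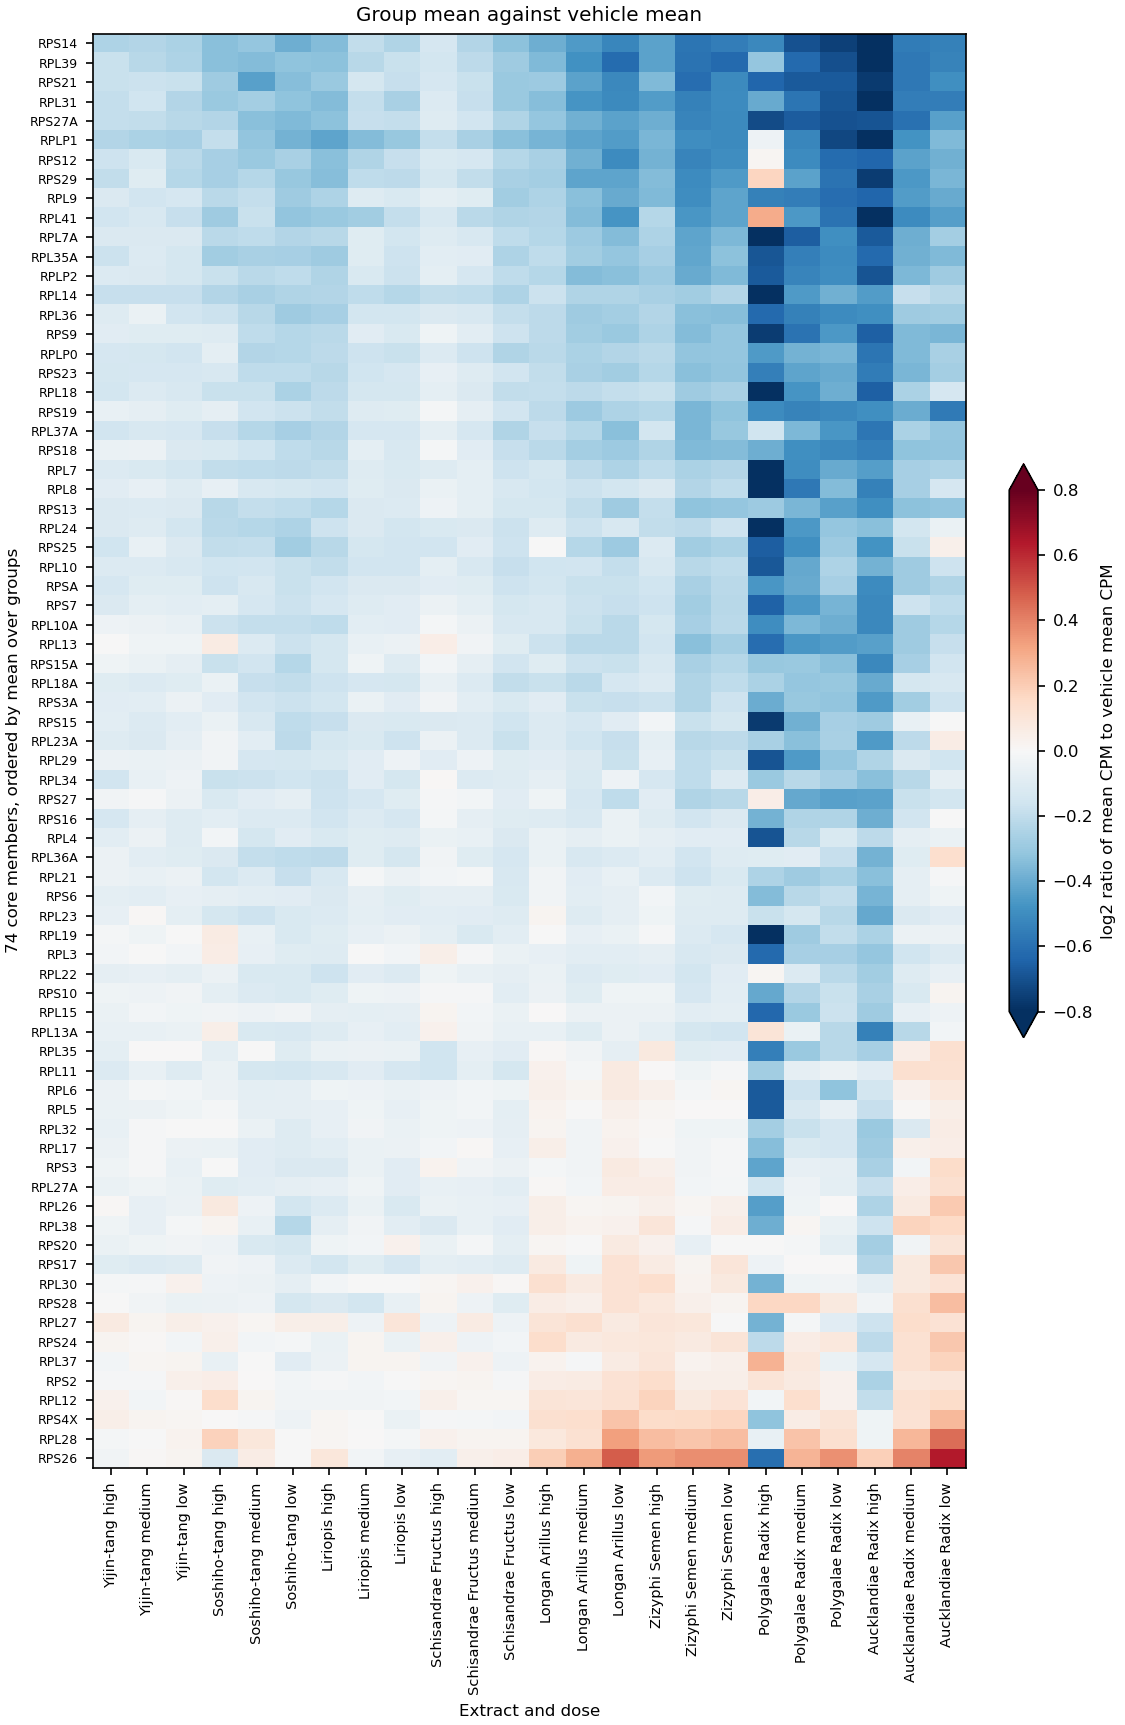
Log2 ratio of each group's mean CPM to the vehicle mean for 74 core members (rows) in 24 extract and dose groups (columns), with blue for lower and red for higher. Most cells are blue, the columns of Polygalae Radix high and Aucklandiae Radix high hold the lowest medians on this TMM scale, and RPS26 is red in the groups of set 10.

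RPS14 is a protein of the small subunit platform (chr5:150442635-150449756, minus strand, GENCODE 29, GRCh38). It is shown as the member with the largest mean fall over the low doses against vehicle (log2 -0.38), and so not as a typical one. The median core member changed by -0.0872 (Yijin-tang) to -0.173 (Soshiho-tang) in those comparisons. RPS14 measured 439.9, 446.0 and 444.9 CPM in vehicle. Yijin-tang gave 388.0, 381.3 and 353.3 CPM at the high dose and 357.5, 377.7 and 380.1 CPM at the low dose. Zizyphi Semen gave 338.4, 330.1 and 319.4 CPM at the high dose and 306.8, 309.0 and 292.7 CPM at the low dose. All values lay below vehicle, and those of Zizyphi Semen below those of Yijin-tang, without overlap. Over the 55 extract libraries RPS14 ranged from 251.3 CPM (Aucklandiae Radix high) to 417.2 CPM (Schisandrae Fructus medium).

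RPLP1 (chr15:69452784-69456194, plus strand) encodes 1 of the acidic stalk proteins that recruit elongation factors to the large subunit. Its vehicle values were 915.2, 933.6 and 922.1 CPM. At the high dose Liriopis seu Ophiopogonis Tuber gave 711.6, 708.0 and 646.5 CPM, and Schisandrae Fructus 839.1, 840.0 and 749.1 CPM. RPL39, a short protein that lines the peptide exit tunnel (chrX:119786504-119791643, minus strand), measured 278.2, 265.7 and 307.5 CPM in vehicle and 187.9, 188.3 and 177.8 CPM in Zizyphi Semen low. RPL31, at the rim of that tunnel, measured 213.5, 212.2 and 216.8 CPM in vehicle and 166.6, 148.7 and 156.3 CPM in Zizyphi Semen high. None of these extract values reached the vehicle range.

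**Figure D3:**
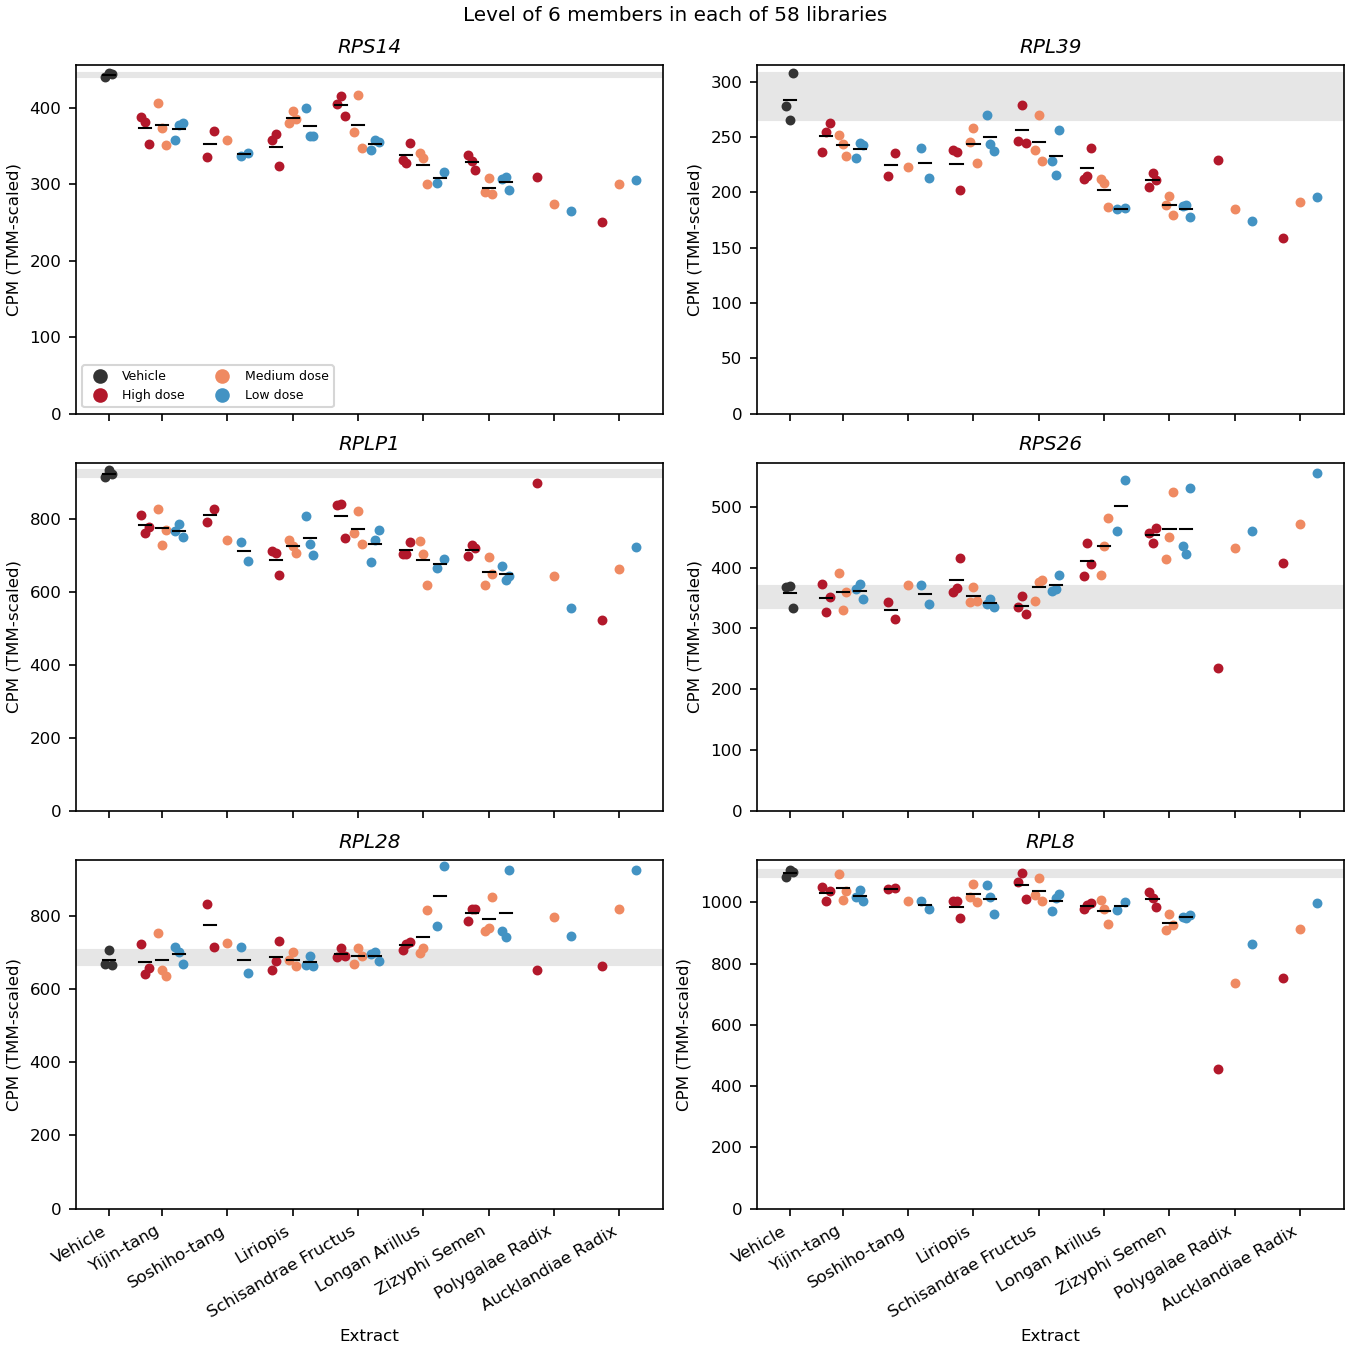
TMM-scaled CPM of RPS14, RPL39, RPLP1, RPS26, RPL28 and RPL8 in each of 58 libraries, with a bar at each group mean and a grey band over the range of the 3 vehicle libraries. RPS14 and RPLP1 lie below the band in all extract libraries, the group means of RPS26 lie above it in set 10 (not called in Longan Arillus high), and RPL8 is lowest in Polygalae Radix high (456.1 CPM).

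Tests were run for the 6 replicated extracts with edgeR's quasi-likelihood test on the counts of all 18228 genes that passed the filter, and a gene was called at an adjusted p below 0.05. The percents of all genes given beside the members' counts were not matched for expression level. Core members lay at 78.9 to 1948 CPM in vehicle, whereas genes as low as RPL3L (0.4046 CPM) passed the filter. The part of level in the number of calls was not tested. The calls rest on leaving out the 2 libraries that stood apart: with them in the same fit, edgeR called 53 members for Longan Arillus low against vehicle, all of them higher, and 61 for Longan Arillus high against low, all of them lower. In every other comparison that fit called 0 members, with 0 to 3 at an unadjusted p under 0.05, and in it 0 to 5.99% of all genes were called. With Yijin-tang few members changed. At the high dose 11 of 87 members were called, all of them lower, where 4.13% of all genes fell and 3.04% rose. At the low dose 11 were called, again all lower, where 2.16% of all genes fell and 1.45% rose. The median log2 fold change of the members was -0.07 at the high and -0.08 at the low dose. RPS14 fell by 0.25 (SE 0.0541, adjusted p 0.00219) at the high dose and by 0.26 (SE 0.0541, adjusted p 0.00299) at the low dose. RPLP1 fell by 0.24 (adjusted p 0.00572) and by 0.27 (adjusted p 0.00368). RPS27A, which is made as a fusion with ubiquitin, fell by 0.19 at the high dose (adjusted p 0.0464), and RPL39 by 0.25 at the low dose (adjusted p 0.0487). The number called depended on single libraries: at the high dose it was 7 without vehicle replicate 2, 5 without vehicle replicate 3, and 6 and 3 without high-dose replicates 2 and 3. For the low dose it was 7, 6 and 4 without vehicle replicates 1, 2 and 3, and 3, 5 and 7 without low-dose replicates 1, 2 and 3.

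With Soshiho-tang 30 members fell and 1 rose at the high dose, where 11.3% of all genes fell and 10.2% rose. At the low dose 34 were called, all of them lower, where 2.13% of all genes fell and 0.922% rose. The members' median was -0.09 at the high and -0.16 at the low dose. RPS14 measured 335.4 and 369.3 CPM at the high dose and 336.6 and 341.5 CPM at the low dose, and fell by 0.33 (SE 0.0611, adjusted p 6.47e-05) and 0.39 (SE 0.0611, adjusted p 0.000167). RPL39 fell by 0.33 (adjusted p 0.00279) and RPL31 by 0.30 (adjusted p 0.000751) at the high dose. RPLP1 fell by 0.38 (adjusted p 0.00063) and RPS27A by 0.36 (adjusted p 0.00217) at the low dose. The member that rose at the high dose was RPL12, the base of the stalk, by 0.14 (SE 0.0466, adjusted p 0.0262), a call that was lost in 4 of the 5 fits that left out 1 library. With 2 libraries per dose the counts rested on single libraries: without high-dose replicate 2, 2 members were called, and without vehicle replicate 1, 20. Of the low-dose libraries, leaving out replicate 2 gave 18 calls and replicate 3 gave 5.

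In set 9, 42 members were called with Liriopis seu Ophiopogonis Tuber at the high dose, all of them lower, where 4.65% of all genes fell and 2.62% rose. Both subunits were included, with 22 of 46 large and 17 of 31 small subunit core members. At the low dose 16 were called, all lower, where 2.35% of all genes fell and 1.54% rose. The members' median was -0.15 at the high and -0.11 at the low dose. RPLP1 fell by 0.43 (SE 0.0571, adjusted p 4.38e-06), RPS14 by 0.35 (adjusted p 4.61e-05) and RPL31 by 0.35 (adjusted p 0.000171) at the high dose. The same members led at the low dose, with falls of 0.31, 0.24 and 0.26 (adjusted p 0.000922, 0.00557 and 0.00587). Without high-dose replicate 3, 20 members were called at the high dose. For the low dose 7, 5 and 5 were called without vehicle replicates 1, 2 and 3, and 5 and 3 without low-dose replicates 2 and 3.

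With Schisandrae Fructus 5 members were called at the high dose, all of them lower, a share close to that of all genes (4.92% fell and 4.23% rose). Among them were RPL14, with a fall of 0.20 (SE 0.0431, adjusted p 0.00114), RPLP1 with 0.19 (adjusted p 0.0235), RPL11 with 0.17 (adjusted p 0.0458) and RPLP0 with 0.11. At the low dose 35 were called, all lower, where 3.98% of all genes fell and 2.36% rose. The members' median was -0.06 at the high and -0.12 at the low dose. RPLP1 fell by 0.34 (SE 0.057, adjusted p 0.000194), RPS14 by 0.33 (adjusted p 0.000102) and RPS21 by 0.30 (adjusted p 0.0015) at the low dose. RPLP1 there measured 683.6, 741.9 and 769.0 CPM, and at the high dose 839.1, 840.0 and 749.1 CPM, so the doses overlapped. Leaving out any 1 of the 6 libraries reduced the 5 calls at the high dose, to 2, 1 and 1 (vehicle replicates 1, 2 and 3) and to 2, 3 and 1 (high-dose replicates 1, 2 and 3). For the low dose 14 and 19 were called without low-dose replicates 1 and 2, and 20 and 21 without vehicle replicates 2 and 3.

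Among the replicated extracts, those of set 10 held the largest falls of single members and most of the rises. With Longan Arillus 34 members were called at the high dose, all of them lower, where 8.26% of all genes fell and 5.55% rose. At the low dose 45 fell and 4 rose, where 13.9% fell and 11.2% rose. With Zizyphi Semen 41 fell and 6 rose at the high dose (12.8% of all genes fell, 9.29% rose), and 52 fell and 3 rose at the low dose (14.6% fell, 12.1% rose). The members' medians were -0.09 and -0.14 for Longan Arillus high and low, and -0.12 and -0.17 for Zizyphi Semen high and low. RPL39 fell by 0.62 in Longan Arillus low (SE 0.0839, adjusted p 1.72e-06) and by 0.62 in Zizyphi Semen low (SE 0.0742, adjusted p 1.37e-07). RPS14 fell by 0.53 (SE 0.0614, adjusted p 6.71e-08) and 0.55 (SE 0.0544, adjusted p 1.81e-09). RPS21, a small subunit protein, fell by 0.52 (adjusted p 6.99e-07) and 0.51 (adjusted p 7.75e-08). At the high doses RPS14 fell by 0.40 and 0.44 and RPL39 by 0.36 and 0.43, and RPL31 fell by 0.45 with Zizyphi Semen. Counts of calls moved by less than 1.5 times when any 1 library was left out. Other values differed from vehicle in these groups as well. Of the 10 A549 epithelial markers, 6 were lower in Longan Arillus high, 4 in Longan Arillus low, 6 in Zizyphi Semen high (with 1 higher) and 7 in Zizyphi Semen low. In sets 8 and 9 the number lower ran from 0 (Liriopis seu Ophiopogonis Tuber low) to 5 (Liriopis seu Ophiopogonis Tuber high and Schisandrae Fructus low). Of the 6 fibroblast markers tested, 1 was higher in Longan Arillus low, 2 in Zizyphi Semen high and 1 in Zizyphi Semen low. Of the 3 leukocyte markers tested, 1 was higher in Longan Arillus high. Of the 2 hepatocyte markers tested, 1 was higher in Longan Arillus low and 1 in Zizyphi Semen low. Mitochondrial genes took 14.14 to 16.83% of counts in these groups of set 10, against 11.46 to 11.76% in vehicle. The slope of log2 CPM on log2 transcript length over genes that are no members had group means of -0.0288, -0.0323, -0.0196 and -0.023, against 0.00856 in vehicle. The part of the markers in the members' falls was not tested, and fits with a length offset are given in the closing section.

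RPS26 went the other way. It encodes a small subunit protein that contacts mRNA upstream of the start codon (chr12:56041351-56044697, plus strand). Vehicle libraries measured 368.6, 370.3 and 333.6 CPM. Longan Arillus low gave 459.3 and 543.2 CPM, Zizyphi Semen high 455.9, 439.9 and 464.5 CPM, and Zizyphi Semen low 435.1, 422.4 and 531.1 CPM. All lay above vehicle. The rises were 0.48 (SE 0.0944, adjusted p 0.000276), 0.34 (SE 0.0855, adjusted p 0.00425) and 0.37 (SE 0.0855, adjusted p 0.00137). In Longan Arillus high its log2 ratio to vehicle was 0.199, and it was not called there. RPS26 was also above vehicle in set 11, with 1 library per dose and no test. Its log2 ratio to vehicle was 0.637, 0.398 and 0.191 in Aucklandiae Radix low, medium and high. It was 0.363 and 0.273 in Polygalae Radix low and medium, whereas Polygalae Radix high lay below vehicle at 235.1 CPM. RPS26 has many processed pseudogenes and the counting shared reads between near-identical copies, so its values are uncertain to that extent. The same limit holds for any other member with near-identical copies, whether it fell or rose.

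RPL28, a large subunit protein, rose with it, from 667.4, 707.2 and 664.3 CPM in vehicle to 771.7 and 936.1 CPM in Longan Arillus low. The rise was 0.32 (SE 0.0823, adjusted p 0.0038) there, 0.24 in Zizyphi Semen high (adjusted p 0.0176) and 0.25 in Zizyphi Semen low (adjusted p 0.0125). The call was lost in Longan Arillus low without replicate 2 and in Zizyphi Semen low without replicate 3 (log2 fold change 0.14, adjusted p 0.197). In Zizyphi Semen high it was lost without vehicle replicate 3 or high-dose replicate 2 or 3. RPS4X, the X-linked copy of a small subunit protein, rose by 0.22 in Longan Arillus low (adjusted p 0.00116), by 0.14 in Zizyphi Semen high and by 0.17 in Zizyphi Semen low (adjusted p 0.00538). The first of these calls was lost without low-dose replicate 2. RPL12 rose by 0.17 in Zizyphi Semen high (adjusted p 0.00221). RPS2, at the mRNA entry, rose by 0.11 in Longan Arillus low and 0.13 in Zizyphi Semen high. Of the risers named here, RPL28 and RPL12 held a tract at an annotated start, RPS26 and RPS4X did not, and RPS2 has no start in the table.

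**Figure D4:**
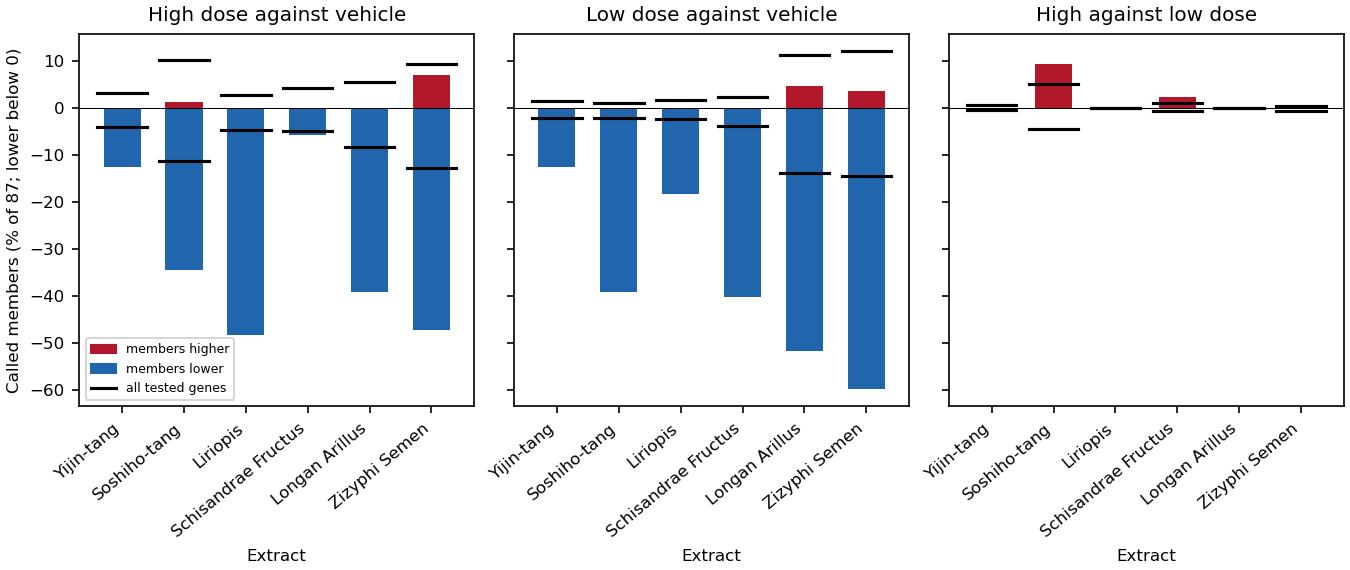
Percent of the 87 tested members called higher (red, above 0) and lower (blue, below 0) by edgeR's quasi-likelihood test in 18 comparisons, with black marks at the percent of all 18228 tested genes. Lower calls lie above the mark for all genes in all 12 comparisons with vehicle, with the most in Zizyphi Semen low (52 members), Longan Arillus low (45) and Liriopis seu Ophiopogonis Tuber high (42), and the panel of high against low doses holds few calls.

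Counted over the 12 comparisons with vehicle, 51 of 77 core members were called lower at least once, 6 were called higher at least once, and 20 were never called. Of all 18228 genes tested, at any level of expression, 26.7% were called lower at least once, 24.2% higher at least once and 51.1% never. RPLP1 and RPL14, a large subunit protein, were lower in all 12, as were 0.428% of all genes. RPL14, RPL31, RPLP0, RPLP1, RPS14 and RPS23 were among the 7 core members lower in all 6 comparisons of a low dose, where 0.801% of all genes were. Of the stalk proteins, RPLP0, the anchor of the stalk, was lower in 11 of 12 comparisons, by 0.11 to 0.31, and its value in Soshiho-tang high was -0.08 (adjusted p 0.184). RPLP2, the partner of RPLP1, was lower in 9, with the largest fall of 0.36 in Zizyphi Semen low (adjusted p 1.34e-06). RPSA, also known as the laminin receptor, was lower in 10, by 0.12 to 0.22. RPL10, which is loaded last onto the large subunit, was lower in 9, by 0.14 to 0.21. RPS27A was lower in 10, with the largest fall of 0.51 in Zizyphi Semen low (adjusted p 1.2e-07). RPL41, the smallest ribosomal protein, was lower in 8, with the largest fall of 0.48 in Longan Arillus low (adjusted p 5.45e-05).

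The members tied to p53 and to S6 kinase moved little. RPL5 was never called, and its log2 fold changes lay between -0.08 (Schisandrae Fructus low, adjusted p 0.182) and 0.03 (Longan Arillus low, adjusted p 0.609). RPL11 was called once, in Schisandrae Fructus high, and its other values lay between -0.15 and 0.07. RPS6 was called lower in Liriopis seu Ophiopogonis Tuber high (-0.12, adjusted p 0.0458), Schisandrae Fructus low (-0.12, adjusted p 0.0348) and Zizyphi Semen low (-0.11, adjusted p 0.0249). In Polygalae Radix high (1 library, TMM scale) RPL5 measured 278.2 CPM against 443.5 in vehicle, RPL11 316.3 against 382.8 and RPS6 825.4 against 1051. SDs of the log2 group means were taken over the 18 groups of at least 2 libraries, so without set 11. By these, RPS6 (0.0319) and RPL5 (0.0356) were among the 5 core members that varied least, beside RPL15 (0.0308), RPL4 (0.0325) and RPL32 (0.0339). The most variable were RPS26 (0.183), RPL39 (0.171), RPS21 (0.157), RPL31 (0.151) and RPS14 (0.151).

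High and low doses of an extract lie in the same set, and between them few members differed. With Soshiho-tang 8 members were called at the high against the low dose, all of them higher, where 5.02% of all genes rose and 4.49% fell. The 3 largest rises were those of RPL38 (0.25, SE 0.0716, adjusted p 0.02), RPL13 (0.24, SE 0.0594, adjusted p 0.00609) and RPL26 (0.23, SE 0.0653, adjusted p 0.0207), and the others included RPL19, RPL12, RPL3 and RPLP0 (0.15 to 0.19). RPL3, which lies at the peptidyl transferase centre, measured 795.5 and 827.8 CPM at the high dose and 718.6 and 735.0 CPM at the low dose. With 1 of the 4 libraries left out, 2 or 3 members were called: 3 without high-dose replicate 2, and 2 without high-dose replicate 3, low-dose replicate 2 or low-dose replicate 3.

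With Schisandrae Fructus 2 members were called at the high against the low dose, both higher, where 0.911% of all genes rose and 0.625% fell. RPS18, at the head of the small subunit, measured 359.7, 368.2 and 363.5 CPM at the high and 315.4, 319.8 and 334.1 CPM at the low dose, a rise of 0.17 (SE 0.0383, adjusted p 0.0108). RPLP0 rose by 0.13 (SE 0.0356, adjusted p 0.0487). None was called without high-dose replicate 2 or low-dose replicate 1 or 2, and 1 without high-dose replicate 1.

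In the other 4 extracts edgeR's quasi-likelihood test called 0 members between the high and the low dose. At an unadjusted p under 0.05 there were 0 members for Yijin-tang, 9 for Liriopis seu Ophiopogonis Tuber, 20 for Longan Arillus and 25 for Zizyphi Semen, and DESeq2 called 0, 0, 1 and 0. Of all genes, 0.987%, 0%, 0.0878% and 1.15% were called in these comparisons. The members' medians between the doses were 0.00316, -0.05, 0.05 and 0.06 on the log2 scale. Without low-dose replicate 3, 1 member was called for Zizyphi Semen. The difference between doses was itself compared between the extracts of a set. It differed for 1 member in set 8 (RPL3) and for 2 in set 9 (RPL3 and RPS18), whose values are given in the closing section, and 2.58% and 0.318% of all genes differed there. In set 10 it differed for 0 members by edgeR's quasi-likelihood test (5 at an unadjusted p under 0.05, not run with DESeq2), and for 0.137% of all genes.

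Among core members, those with a TOP tract at an annotated start were lower than those without in 23 of 24 groups by their medians, given as a description. In Zizyphi Semen low the median log2 ratio to vehicle was -0.23 for the 46 with a tract and -0.08 for the 16 without. In Longan Arillus low it was -0.20 and -0.05, in Soshiho-tang low -0.20 and -0.10, and in Liriopis seu Ophiopogonis Tuber high -0.20 and -0.10. The ranges overlapped: in Zizyphi Semen low members with a tract ran from -0.62 to 0.25, and those without from -0.46 to 0.37. Polygalae Radix high was the exception, with -0.41 for those with a tract and -0.57 for those without. Length related weakly to the change. Over the 77 core members the Pearson correlation of the log2 ratio with log2 transcript length was 0.11 to 0.27 in the groups of the 6 replicated extracts. Spearman's rho was 0.0293 to 0.129. With the log2 level in vehicle Pearson's r was 0.167 to 0.474, so members of lower level had lower ratios. The points share libraries, and the part of length or level in the contrast between tract and no tract was not tested.

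Polygalae Radix and Aucklandiae Radix had 1 library per dose, so their values have no replicate check and no test. They are log2 ratios of CPM plus 1, counted past 0.32 in either direction. In Polygalae Radix high 53 members were past it below vehicle and 1 above, where 27.9% of all genes lay below and 26.7% above. With CPM from total counts in place of TMM, 22 lay below and 11 above, because that scaling moved the median of all genes to 0.22. Medium and low doses gave 42 below and 0 above (11.7% and 10% of all genes) and 34 below and 1 above (6.54% and 8.09%). By TMM the core median was -24.4% at the high, -19.4% at the medium and -17.0% at the low dose. By total counts the order turned, with log2 medians of the members of -0.0791, -0.228 and -0.285. The medians of all genes moved as well, to 0.22, 0.0517 and -0.0176, and each lay above that of the members. The epithelial markers summed to 3074 CPM at the high dose, 10330 CPM at the medium and 15980 CPM at the low dose, and their part in these values was not tested.

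In Polygalae Radix high the members differed from each other. Against the low dose, 29 members lay below and 9 above by TMM (27.9% and 25.2% of all genes), and 5 below and 28 above by total counts. The members' medians were -0.16 and 0.18, where those of all genes were -0.00019 and 0.223. The sign of the members' median thus depends on the scaling, whereas it lay below the median of all genes by both. A scaling shifts the members of a library nearly alike, so it bears little on their spread. The interquartile range of the members' log2 ratios was 0.417, against 0.138 between the medium and low doses, where 1 member lay above and 0 below (4.54% and 7.99% of all genes). RPL41 measured 1232 CPM at the high dose, 728.3 at the medium and 664.9 at the low dose, a log2 ratio of 0.89 between high and low. RPS29, RPLP1, RPS12 and RPS27 had ratios of 0.75, 0.69, 0.63 and 0.49. RPL8 ran the opposite way, with 456.1, 737.9 and 863.1 CPM (log2 ratio -0.92), as did RPS26 with 235.1, 432.0 and 459.7 CPM (-0.96) and RPL24 (-0.80). Members of the large and of the small subunit lay on either side. The correlation of the high-to-low ratio with log2 length over the 77 core members was -0.379. It was -0.344 for Zizyphi Semen and -0.329 for Longan Arillus, and ran from -0.0865 (Schisandrae Fructus) to 0.302 (Liriopis seu Ophiopogonis Tuber) in the other extracts.

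In Aucklandiae Radix high the members were closer to each other. Past a log2 ratio of 0.32, 50 members lay below vehicle and 1 above, where 14.1% of all genes lay below and 15.9% above. Medium and low doses gave 20 below and 2 above (7.75% and 7.69% of all genes) and 14 below and 4 above (8.06% and 8.77%). Between the high and the low dose of the same set, 33 lay below and 0 above (11.6% and 13.5% of all genes), and 19 below and 0 above by total counts. Of the 77 core members, 76 were lower at the high than at the low dose. RPL41 measured 558.5, 708.8 and 740.2 CPM at the high, medium and low dose, RPLP1 522.3, 663.7 and 724.5 CPM, and RPS14 251.3, 300.4 and 305.3 CPM. RPS19, mutated in Diamond-Blackfan anaemia, was the exception with 604.7, 646.7 and 573.5 CPM. Between the medium and the low dose 0 members were past it, where 3.76% of all genes lay below and 3.26% above. The epithelial markers summed to 11030 CPM at the high and 14710 CPM at the medium dose, and their part was not tested.

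**Figure D5:**
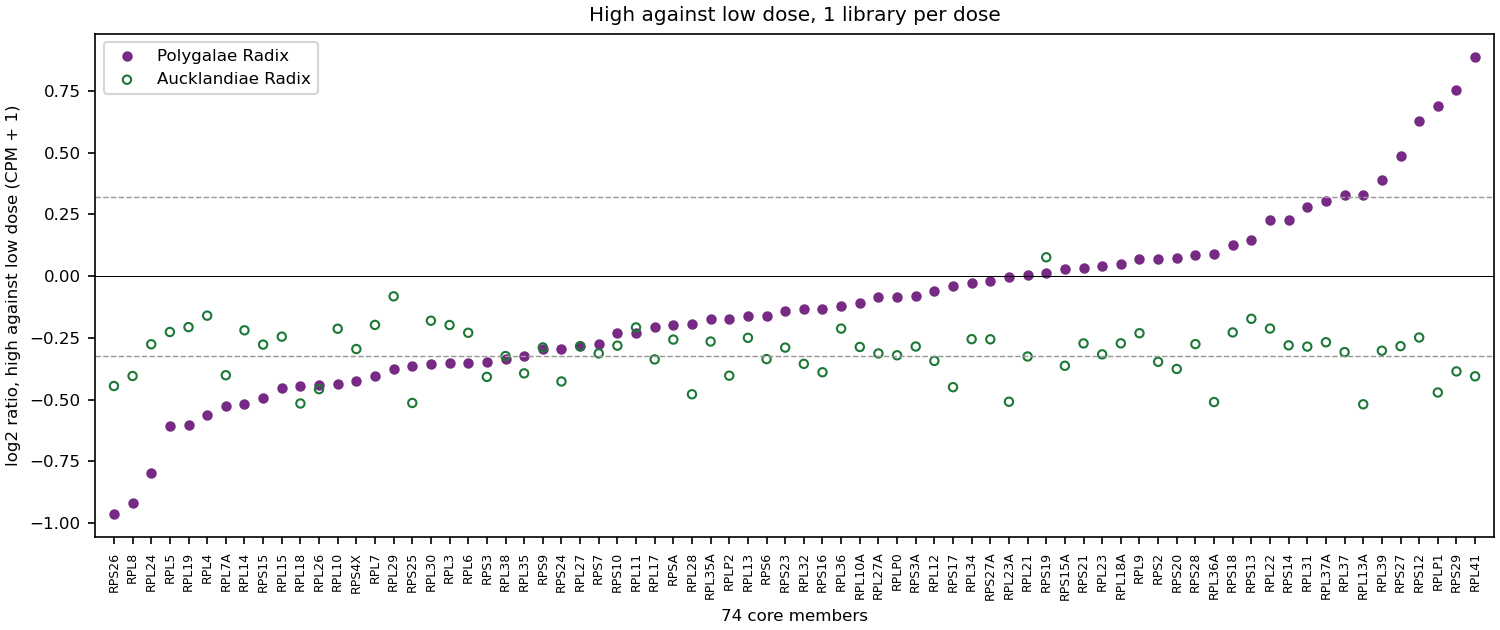
Log2 ratio of CPM plus 1 between the high and the low dose for 74 core members, ordered by Polygalae Radix (filled), with Aucklandiae Radix open and dashed lines at the log2 ratio of 0.32 either way, from 1 library per dose. Polygalae Radix runs from -0.96 (RPS26) to 0.89 (RPL41), while Aucklandiae Radix is below 0 for all but RPS19.

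The paralogues were set against their core genes as a percent of counts. RPL22L1, which can replace RPL22 and regulates splicing, stood at 20.8 to 21.7% of RPL22 in vehicle and at group means of 19.6 to 23.6% in the replicated extracts. It stood at 12.1% in Polygalae Radix high and at 12.1% in Aucklandiae Radix high, each 1 library. Its level was 48.64 CPM in vehicle, 27.97 CPM in Polygalae Radix high and 22.8 CPM in Aucklandiae Radix high, whose medium and low doses gave 46.86 and 45.22 CPM. RPL22 itself measured 228.4 CPM in vehicle, 230.7 CPM in Polygalae Radix high and 188.4 CPM in Aucklandiae Radix high. In the tests RPL22L1 fell in Longan Arillus low (by 0.23, adjusted p 0.0046) and Zizyphi Semen low (by 0.20, adjusted p 0.00531). RPL22 fell there by 0.11 (adjusted p 0.0446) and 0.10 (adjusted p 0.0395).

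RPL39L, a paralogue known from the testis and from tumours, stood at 5.98 to 7.17% of RPL39 in vehicle, at 8.35 and 8.36% in the 2 libraries of Longan Arillus low and at 7.59 to 9.04% in Zizyphi Semen low. Both genes fell there, RPL39L by 0.28 (adjusted p 0.0146) and 0.28 (adjusted p 0.00493), against 0.62 for RPL39 in both. RPL36AL stood at 47.4 to 49.0% of RPL36A in vehicle and at 37.9% in Polygalae Radix high. It fell once in the tests, in Liriopis seu Ophiopogonis Tuber high (by 0.22, adjusted p 0.0204), and RPL36A was never called. RPL7L1, a ribosome assembly factor, stood at 22.1 to 23.7% of RPL7 in vehicle and at 33.6% in Polygalae Radix high.

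Genes that work with the members gave a mixed picture. Ribosomal proteins outside the symbol rule include FAU, made as a fusion, and RACK1, a scaffold on the small subunit. FAU fell by 0.32 (adjusted p 8.12e-05) in Zizyphi Semen low, whereas RACK1 was not called against vehicle in any of the 12 comparisons, with values from -0.06 to 0.08. Of 13 other TOP genes, 0 to 5 were lower and 0 to 3 higher in the comparisons with vehicle. EEF1A1, which brings aminoacyl-tRNA to the ribosome, fell from 5533 to 4693 CPM in Longan Arillus low (by 0.24, adjusted p 3.86e-06). Of 27 ribosome assembly genes, 5 to 14 were lower and 0 to 4 higher. The percents of all genes that fell and rose in each of these comparisons are given above. In Zizyphi Semen low 10 of the 27 assembly genes were lower and 4 higher. POLR1B, a subunit of RNA polymerase I, fell by 0.43 in Zizyphi Semen low (adjusted p 1.34e-08), and BOP1, which processes the large subunit RNA, by 0.38 (adjusted p 2.74e-08). Schisandrae Fructus high, with 5 members lower, had the most of the assembly genes lower, 14 of 27.

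The 12 snoRNA host genes carry guide RNAs for ribosomal RNA modification in their introns, and several begin with a TOP tract. In Soshiho-tang 6 of 12 rose at the high against the low dose, with a median of 0.24. ZFAS1 rose from 65.49 to 87.47 CPM (0.42, SE 0.0634, adjusted p 4.01e-06), SNHG8 by 0.40 (adjusted p 0.0196) and SNHG32 by 0.39 (adjusted p 0.000454), where 8 of 87 members rose. The 78 mitochondrial ribosomal protein genes, whose ribosomes translate the mitochondrial genome, were called lower in a smaller percent than the members in 11 of 12 comparisons with vehicle. The exception was Schisandrae Fructus high, with 8 of 78 against 5 of 87. In Liriopis seu Ophiopogonis Tuber high 11 of 78 were lower against 42 of 87 members, in Schisandrae Fructus low 9 against 35, and in Zizyphi Semen low 26 against 52. In Soshiho-tang high the counts were 25 of 78 and 30 of 87. The lists were not matched for expression level, and the differences between them were not tested.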

How the data were processed

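Bulk mRNA of A549 cells was measured in 60 libraries. Per the labels' protocols they were made with a directional MGI kit. Per the submitters' processing notes, RSEM 1.3.3 and STAR 2.7.3a were used on hg38 (GRCh38), with Trim Galore 0.6.5 and FastQC 0.11.9. Neither the annotation release nor the strand setting is given in the sources used here. RSEM expected counts per gene, unscaled, were deposited by the authors and rounded here. The members and lists were chosen with earlier results of these data known.

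Of the replicated groups, 52 libraries (without the 2 left out) entered 1 fit of edgeR 4.0.16 (robust quasi-likelihood, TMM, filterByExpr by group; R 4.3.3), over 18228 genes and 18 contrasts, with Benjamini-Hochberg adjustment over all genes. Polygalae Radix and Aucklandiae Radix had no test. The lowest chi-square per degree of freedom between replicates was 1.863, so each library counted as 1. DESeq2 1.42.0, no filter, a replicate block, other scalings, a transcript length offset and leaving out libraries were alternatives. The edgeR fit was tested on simulated data. Gene coordinates are from GENCODE 29 and start sequences from RefSeq. Named members were the 3 called with the largest rise and fall in each comparison, members with set roles, and the 5 at each end of level and spread; others with a set place in a count (such as all risers) were named after their values were seen. A few genes are not reported here by name, and the figures leave them out; counts and medians include them.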

Additional observations from a re-analysis of the deposited data

Results flagged for a closer look

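Both libraries outside the comparisons held a far larger share of counts from the ribosomal protein genes than any other library. The members took 7.751% of all counts in replicate 3 of Soshiho-tang medium and 9.859% in replicate 3 of Longan Arillus low, where the other 58 libraries lay between 3.631 and 4.568%. RPS14 measured 932.0 and 1775 CPM in these libraries, against 439.9 to 446.0 CPM in vehicle. RPL39 measured 656.5 and 1042 CPM and RPS27A 1266 and 2278 CPM. Genes with shorter transcripts were higher in both, also outside the members: the slope of log2 CPM, as a difference from the mean of the other 58 libraries, on log2 transcript length over genes that are neither members nor mitochondrial was -0.225 and -0.305, against -0.068 to 0.0308 in those 58. The part of that slope in the members' share was not tested.

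The difference between the high and the low dose was itself tested between the extracts of a set with edgeR's quasi-likelihood test, adjusted over all genes. In set 8 it differed for RPL3: the difference of Yijin-tang minus that of Soshiho-tang was -0.16 (log2, SE 0.0468, adjusted p 0.0485). RPL3 measured 774.1, 774.8 and 748.5 CPM at the high and 760.9, 784.0 and 757.8 CPM at the low dose of Yijin-tang, and its higher values at the high dose of Soshiho-tang are given above. It was 1 of 87 members called, where 2.58% of all genes were called.

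In set 9 it differed for RPS18 and RPL3. For RPS18, a protein of the small subunit head, the difference of Liriopis seu Ophiopogonis Tuber minus that of Schisandrae Fructus was -0.26 (SE 0.0543, adjusted p 0.0174). RPS18 measured 315.7, 333.5 and 299.0 CPM at the high and 348.5, 333.8 and 325.9 CPM at the low dose of Liriopis seu Ophiopogonis Tuber, and 359.7, 368.2 and 363.5 CPM against 315.4, 319.8 and 334.1 CPM for Schisandrae Fructus. With Schisandrae Fructus the doses did not overlap, whereas with Liriopis seu Ophiopogonis Tuber they did. For RPL3 the difference was -0.18 (SE 0.0418, adjusted p 0.0339), with 718.0, 756.7 and 699.8 CPM against 782.4, 764.6 and 757.3 CPM for Liriopis seu Ophiopogonis Tuber, and 800.0, 819.3 and 791.1 CPM against 758.8, 742.9 and 745.9 CPM for Schisandrae Fructus. These were 2 of 87 members called, where 0.318% of all genes were called.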

How the results depend on the processing

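Counts below are members called of 87. Without the filter on low counts, the number called against vehicle was 38 for Liriopis seu Ophiopogonis Tuber low, 14 for Schisandrae Fructus high, and 25 and 23 for Yijin-tang high and low, and between high and low doses it was 1 for Liriopis seu Ophiopogonis Tuber, 9 for Longan Arillus, 12 for Schisandrae Fructus and 6 for Zizyphi Semen. Between doses DESeq2 called 1 for Longan Arillus and 5 for Schisandrae Fructus. With the replicate number as a block these were 2 and 4; the numbers did not pair the samples (same-number correlations -0.061 to 0.0525), and the block moved no other count by over 1.5 times. With a transcript length offset 9 were called for Schisandrae Fructus high against vehicle and 13 for Soshiho-tang high against low, and the members' median log2 change was -0.136 and -0.1907 for Longan Arillus high and low and -0.1518 and -0.1997 for Zizyphi Semen high and low.

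With both left-out libraries in the fit, 0 members were called by edgeR against vehicle for either dose of Yijin-tang, Soshiho-tang, Liriopis seu Ophiopogonis Tuber, Schisandrae Fructus and Zizyphi Semen, for Longan Arillus high, or between doses of Soshiho-tang and Schisandrae Fructus, and 61 were called for Longan Arillus high against low. At an unadjusted p under 0.05 there were 0 to 3 members in each comparison with 0 calls, and DESeq2 was not run on this set. The median turned to -0.6289 for Longan Arillus high against low and 0.5446 for Longan Arillus low against vehicle, where RPL39 (0.7315), RPS14 (0.8473) and RPS21 (1.238) turned to higher. Of the 51 changes of named members, 3 kept their call and 45 lost it, and of the 3 that turned RPS14 and RPS21 were called higher (adjusted p 0.0348 and 0.0119) and RPL39 was not called (0.0714), whereas all 51 kept it under DESeq2, no filter, the block, other scalings and the length offset.

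On CPM without TMM, 33 members passed the fold for Polygalae Radix high against vehicle and 19 for Aucklandiae Radix high against low. On other size factors, alternatives chosen after seeing the data, these counts stayed within 1.5 times. Without mitochondrial genes the members' share minus vehicle was -0.0713 and -0.151 percentage points for Longan Arillus high and low, -0.128 for Soshiho-tang high, and -0.0964 and -0.277 for Zizyphi Semen high and low. Of all counts, the group means were 4.29 and 4.146% for Longan Arillus high and low, against 4.511% in vehicle. They were 4.262% for Soshiho-tang high, and 4.19 and 4.071% for Zizyphi Semen high and low.

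With 1 library left out, the number called against vehicle was 20 to 42 and 3 to 18 for Liriopis seu Ophiopogonis Tuber high and low, 1 to 3 and 14 to 41 for Schisandrae Fructus, 2 to 28 and 5 to 29 for Soshiho-tang, and 3 to 11 and 3 to 7 for Yijin-tang. Between doses it was 0 to 3 for Schisandrae Fructus, 2 to 3 for Soshiho-tang and 0 to 1 for Zizyphi Semen. The median ran from -0.1158 to -0.05392 for Longan Arillus high, -0.1755 to -0.1252 for Longan Arillus low and -0.1283 to -0.09136 for Zizyphi Semen high. Where a dose was left with 1 library, that library is assumed to vary like the other groups. The cause of these changes was not tested. Library totals were 18 to 33.83 M counts, and the effect of depth was not tested.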
